A study of Mus musculus with 4 samples.

Results

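The S100, annexin and galectin effector genes followed here were 10 in number: the S100 genes S100a4, S100a6, S100a10 and S100a11, the annexins Anxa1 and Anxa2, the galectins Lgals1 and Lgals3, the intermediate filament gene Vim and the LIM domain gene Crip1. They were chosen by symbol and are 10 of the 33696 genes in the tables. All 10 reached 10 CPM (counts of a gene scaled to a common library total) in at least 1 tissue, as 8635 genes did. The cells were CD4+ CD44+ GITR- conventional (Tconv) T cells, sorted on day 60 of experimental autoimmune encephalomyelitis (EAE) from the brain and the spleen of wild-type C57BL/6 mice. EAE is brought on by immunising mice so that their T cells attack the brain and spinal cord. Each tissue gave 1 RNA library and 1 T cell receptor library from the same droplets. How many mice were pooled per tissue is not stated in the labels, and both tissues came from immunised mice, so no healthy tissue enters.

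S100 proteins are small EF-hand proteins that bind calcium and then bind partner proteins at membranes and at the cytoskeleton. S100a10 is the exception that does not bind calcium, and it joins Anxa2 in a complex that also binds the large scaffold protein Ahnak. Annexins bind membrane phospholipids in a calcium-dependent manner, and secreted Anxa1 acts on formyl peptide receptors. Galectins bind galactose-containing glycans. Lgals1 binds Ptprc (CD45), Spn (CD43) and Cd7 on T cells, and Lgals3 binds glycans made by Mgat5. Vim forms intermediate filaments of mesenchymal and blood cells, and Crip1 is a small zinc-binding protein of unclear function in T cells. In the mouse, the S100 genes lie in a cluster on chromosome 3: S100a5 is the only coding gene between S100a4 and S100a6 in the RefSeq annotation of GRCm38.p6, and S100a11 and S100a10 are direct neighbours.

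RefSeq promoter sequences were at hand for 8 of the 10 genes, and 4 are shown. These cover the nearby genes S100a4 and S100a6, whose levels went together most closely over single spleen cells. The other shown promoters are those of the 2 members with an AP-1 motif, which the Fos and Jun proteins bind. Each run is the 250 bases before the annotated start, 5′ to 3′ on the plus strand of GRCm38.p6, at chr3:90603520-90603769, chr3:90612644-90612893, chr3:93520246-93520495 and chr9:69453433-69453682. Capitals mark the AP-1 motif, spelled TGANTCA. They also mark the TATA box, spelled TATAAA. Each was searched on both strands, and no match of one overlapped a match of the other.
S100a4: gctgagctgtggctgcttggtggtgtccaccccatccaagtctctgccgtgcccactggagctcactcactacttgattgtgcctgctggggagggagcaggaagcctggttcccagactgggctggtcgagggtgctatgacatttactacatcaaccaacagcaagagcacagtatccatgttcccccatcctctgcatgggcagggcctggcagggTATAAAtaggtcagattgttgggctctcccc
S100a6: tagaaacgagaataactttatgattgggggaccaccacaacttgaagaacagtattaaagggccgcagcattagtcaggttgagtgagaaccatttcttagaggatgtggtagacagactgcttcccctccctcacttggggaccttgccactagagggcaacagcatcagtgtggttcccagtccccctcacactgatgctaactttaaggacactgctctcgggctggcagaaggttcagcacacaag
S100a11: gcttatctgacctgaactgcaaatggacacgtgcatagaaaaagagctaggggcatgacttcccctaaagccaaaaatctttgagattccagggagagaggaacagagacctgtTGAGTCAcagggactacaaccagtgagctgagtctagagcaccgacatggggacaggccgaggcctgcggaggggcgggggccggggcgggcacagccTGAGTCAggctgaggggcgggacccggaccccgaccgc
Anxa2: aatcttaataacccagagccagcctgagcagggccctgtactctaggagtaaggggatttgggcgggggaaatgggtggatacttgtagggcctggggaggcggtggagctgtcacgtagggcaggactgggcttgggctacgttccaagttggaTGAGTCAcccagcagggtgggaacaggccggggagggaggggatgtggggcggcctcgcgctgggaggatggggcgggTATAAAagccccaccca
The AP-1 motif stood in the 250 bases of S100a11, at 136 and at 38 bases before the start, and in those of Anxa2, at 95 bases before it. It was in 2 of the 8 member promoters, against 6.75% of all 32851 promoters. TATAAA was in 4 of the 8, those of S100a4, Anxa1, Anxa2 and Vim, against 12.4% of all. S100a4 has TATAAA at 31 bases before the start, and these letters are not in the window of S100a6. The letters CACCC, also searched on both strands but not marked, were in 5 of the 8, against 52.0% of all. A match of letters is a description and no binding site.

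After filtering, 3930 brain cells with 40885555 unique molecular identifiers (UMIs) and 7969 spleen cells with 60157337 UMIs remained, with a median of 9834 UMIs per brain cell and 7188 per spleen cell. Since a tissue has 1 RNA library, no test could be run and no p-value is given. Levels are CPM of UMIs summed over cells, and 95% intervals are exact and cover counting error only, not variation between mice or libraries. Higher and lower mean a ratio past 1.5 in that direction whose interval does not hold 1, and only such genes are said to be called. The 5 T cell genes Cd3e, Cd3d, Cd3g, Trac and Cd4 were called in neither direction. Of the 13 myeloid or microglia markers, 2 reached 10 CPM and neither was called. The other 11 stood at 2.10 CPM or less in both tissues, and C1qb, C1qc and Tmem119 were at 0 in spleen. All 4 haemoglobin genes were at 0 in brain. The stress list of early response and heat shock genes had 12 of 17 measured genes higher in brain and 0 lower, with a median of 15132 CPM per cell in brain and 4777 CPM in spleen. Its part in the results was not tested. The 2 libraries shared 31 barcodes, 15 of them among the kept cells.

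Over all cells, 6 of the 10 members were higher in brain and 0 were lower, against 9.86% of all tested genes higher and 8.66% lower. The median log2 ratio was 0.71 over the members and -0.09 over all genes. Of the S100 genes, S100a4 and S100a6 were higher, while S100a10 and S100a11 did not reach a ratio of 1.5. S100a4, which binds non-muscle myosin, had 721 CPM in brain against 345 CPM in spleen, with a ratio of 2.09 (2.05 to 2.13). S100a6 had 865 CPM in brain against 459 CPM in spleen, with a ratio of 1.88. S100a10 had 867 CPM in brain against 837 CPM in spleen, with a ratio of 1.04, and S100a11 had 611 and 486 CPM, a ratio of 1.26. Within the family, S100a4 and S100a6 were thus called and S100a10 and S100a11 were not.

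Both annexins were higher in brain. Anxa1 had 46.5 CPM in brain against 20.1 CPM in spleen, with a ratio of 2.32 (2.15 to 2.49), the highest of the 10 in this comparison. Anxa2 had 159 CPM in brain against 95.9 CPM in spleen, with a ratio of 1.66, while its partner S100a10 was not called. Of the galectins, Lgals3 had 90.6 CPM in brain against 39.7 CPM in spleen, with a ratio of 2.28, and Lgals1 had 577 and 439 CPM, a ratio of 1.31 that was not called. Vim had 1079 CPM in brain against 671 CPM in spleen, with a ratio of 1.61. Crip1 had 715 CPM in brain against 669 CPM in spleen, with a ratio of 1.07.

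All 6 called members were found in a larger share of brain cells. With every cell thinned to 5000 UMIs, which left out 452 brain and 1407 spleen cells, S100a4 was found in 61.8% of brain cells and 23.4% of spleen cells (60.9% and 24.0% without thinning). Among cells with a UMI, the mean was 5.48 S100a4 UMIs in brain and 6.89 in spleen. S100a6 was found in 69.2% of brain cells and 32.3% of spleen cells, with 5.90 and 6.75 UMIs per positive cell. Lgals3 was found in 20.3% of brain and 5.76% of spleen cells (26.9% and 6.65% without thinning). In contrast, S100a10 was found in 90.1% of brain and 85.5% of spleen cells. For Vim both quantities were higher in brain: 81.3% of brain cells and 62.3% of spleen cells had a UMI, with 6.31 and 5.11 UMIs per positive cell.

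The 133 B cells set aside from the spleen library, with a median of 5382 UMIs, gave a level for cells that are not T cells. S100a4 was found in 0.75% of them, Lgals3 in 3.0%, S100a6 and Lgals1 in 4.5% each and Anxa1 in 5.3%. Over all spleen cells the thinned share of Anxa1 was 6.26%, and its UMIs were unevenly spread: 732 of 1208 lay in the 631 Th17-like cells and 222 in the 675 NKT-like cells, against 0 in 366 follicular helper-like cells and 3 in 1963 naive or central memory-like cells. S100a10, S100a11, Vim and Crip1 were found in 64%, 68%, 50% and 80% of B cells, so those genes are not limited to T cells. Whether the members rare in B cells are limited to T cells could not be told from the cells with myeloid genes. In 33 brain cells with at least 3 UMIs of myeloid genes, S100a4, S100a6 and Lgals1 were each found in 81.8%. Their levels there were 1032, 927 and 717 CPM. Lgals3 was found in 42.4% of these cells and Anxa1 in 24.2%. The median of these 33 cells was 13241 UMIs. T cell genes were not required to be absent, so these cells may hold T cell RNA. A thinned brain cell held a median of 7 of the 10 members and a thinned spleen cell a median of 4. At least 8 members were found in 33.4% of brain cells and 11.4% of spleen cells, and at most 4 in 24.3% and 62.7%.

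Summed per cell, the 10 members took a median of 4247 CPM in brain against 1727 CPM in spleen. Of the brain cells, 75.1% lay above the spleen median, yet only 2.72% lay above the 95th percentile of the spleen cells. Most brain cells thus lay within the range of the spleen cells. Ordered by their stress level and cut into equal groups, low, middle and high, brain cells had 690, 653 and 818 CPM of S100a4 and spleen cells had 438, 337 and 268 CPM. The stress level of these groups was not matched between the tissues: its median was 7969 CPM in the low brain group and 6780 CPM in the high spleen group.

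**Figure D1:**
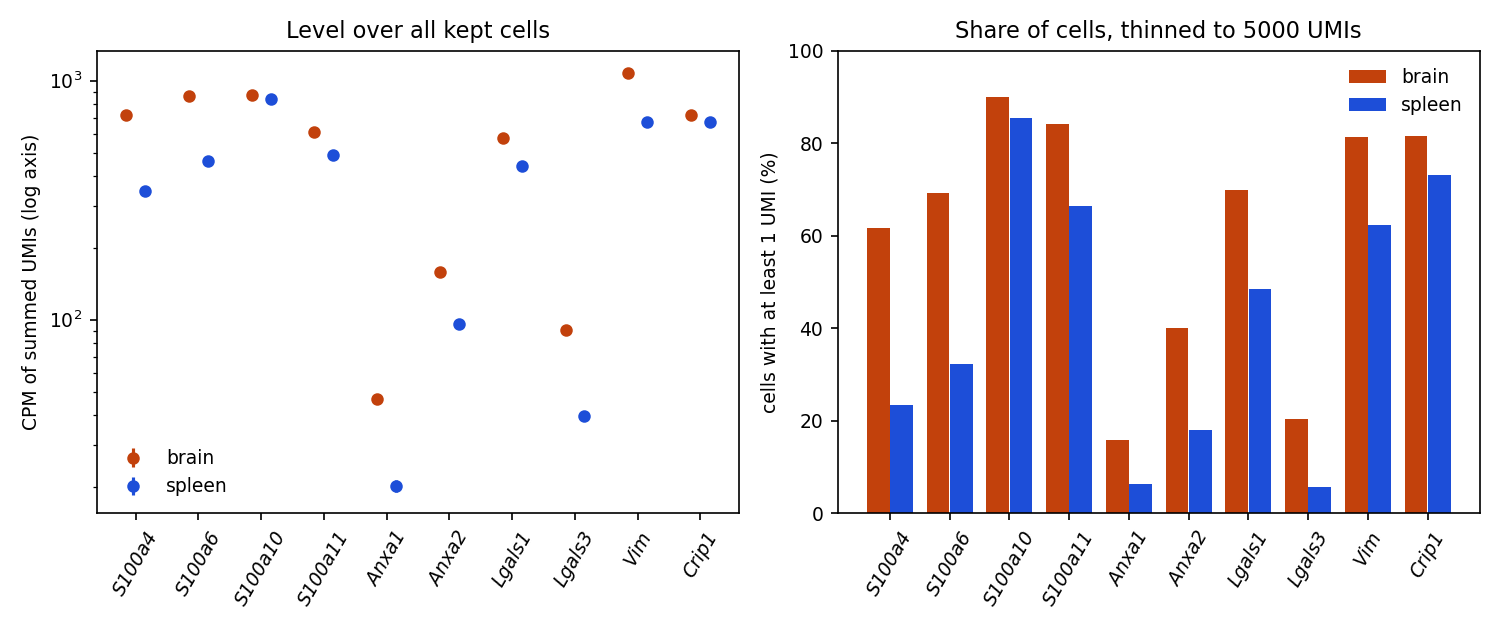
Levels of the 10 members by tissue. Left, CPM of summed UMIs on a log axis over 3930 brain and 7969 spleen cells, with exact 95% counting intervals that are mostly smaller than the points. Right, the percentage of cells with at least 1 UMI after thinning to 5000 UMIs per cell; S100a4 stood at 61.8% in brain and 23.4% in spleen, while S100a10 stood at 90.1% and 85.5%.

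The level of the members differed between cell states. Each library was clustered on its own, with the 10 members kept out of the genes used for clustering. In both tissues the naive or central memory-like cells, led by genes such as Igfbp4, Dapl1 and Ccr7, had the least S100a4 and S100a6. S100a4 stood at 2.04 CPM in the 341 brain cells of this class (7 UMIs) and at 1.64 CPM in the 1963 spleen cells (24 UMIs). S100a6 stood at 3.79 CPM in brain against 4.98 CPM in spleen. Anxa1 had 0 UMIs in brain, which allows up to 3 counts, and 3 UMIs in spleen. Lgals3 had 1 UMI in brain and 3 in spleen. S100a10, S100a11, Vim and Crip1 remained well detected there: Vim had 282 CPM in brain against 348 CPM in spleen, and Crip1 had 355 and 439 CPM. S100a4, S100a6, Anxa1, Anxa2 and Lgals3 were under 10 CPM in this class in both tissues, and the other 5 members were above it.

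In spleen the sum of the members was highest in the Th17-like cluster, while in brain it was highest in a cytotoxic-like cluster of 45 cells, at 9869 CPM, against 7958 and 7760 CPM in the Th17-like clusters there. The spleen Th17-like cluster of 631 cells, with Tmem176b, Ccr6 and Il23r among its leading genes, was the cluster with the most S100a4 (1594 CPM), S100a6 (2160 CPM), Vim (2260 CPM), Crip1 (2098 CPM) and Anxa1 (147 CPM) in either tissue. Lgals3 and Anxa1 were among its 10 leading genes although neither was used to form it. The brain had 2 Th17-like clusters, one led by Il17a, Ccl1 and Nrgn (282 cells) and one by Ccr6, Il22 and Mmp25 (285 cells). The first had the highest S100a4 of the brain clusters, 1509 CPM, and the second had 932 CPM; Crip1 went the other way, with 670 CPM in the first and 1231 CPM in the second. A further brain cluster of 447 cells that met no name had Ifitm1, Tmem176b, Actn2 and Il17re among its leading genes, and shared 6 of its 10 leading genes with the spleen Th17-like cluster. It had the highest S100a6 (1468 CPM) and Vim (1904 CPM) of the brain clusters.

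Lgals1, Lgals3 and S100a10 were highest elsewhere. The highest Lgals1 was in the cytotoxic-like cluster with Gzma, Klrg1, Zeb2 and S1pr5 among its leading genes, at 2156 CPM in the 45 brain cells of that cluster and 2778 CPM in the 91 spleen cells. The other cytotoxic-like cluster, led by Eomes and Gzmk, had 352 CPM of Lgals1 in brain and 266 CPM in spleen. Lgals3 was highest in the same Gzma and Zeb2 cluster, with 307 CPM in brain against 294 CPM in spleen, and the intervals of those values overlap. S100a10 was highest there too, at 1735 CPM in brain against 2259 CPM in spleen. Among spleen clusters, S100a11 was highest in the follicular helper-like cells, at 1250 CPM, where Vim had 221 CPM, Crip1 205 CPM and Anxa1 0 UMIs. Anxa2 was highest in proliferating-like cells, with 332 CPM in 39 brain cells and 590 CPM in 104 spleen cells. Anxa1 in brain was highest in the NKT-like cells, at 110 CPM.

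The regulatory-like cells lay in between and were present although the sort took GITR- cells: 204 in brain and 864 in spleen. They had 525 CPM of S100a4 in brain and 521 CPM in spleen. The brain Th1-like cluster of 849 cells, led by Zfp683, Il12rb2 and Cxcr3, had 553 CPM of S100a4, 747 CPM of S100a6 and 982 CPM of Vim. A brain cluster of 318 cells led by Ccl3, Ccl4 and Rgs16 had more of each, with 1384, 1256 and 1567 CPM. No spleen cluster met the Th1 name. Clusters of low UMI number led by Hdac9, 285 brain and 468 spleen cells, had 66.5 and 45.4 CPM of S100a4.

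**Figure D2:**
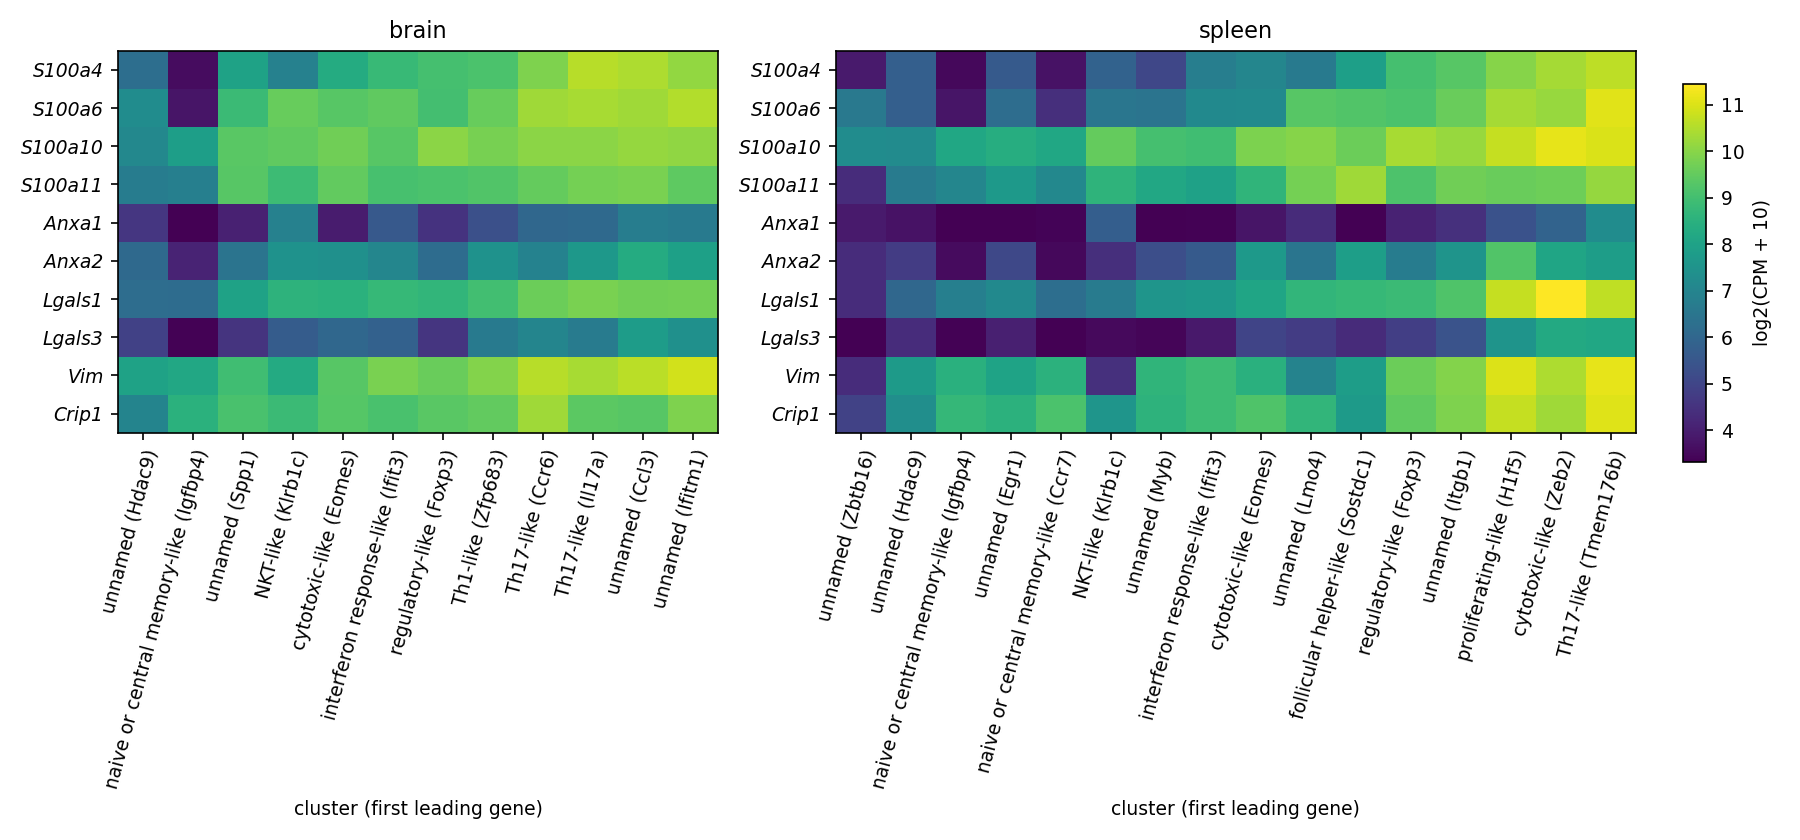
Level of the 10 members, as log2(CPM + 10) of summed counts, in the brain clusters (left) and spleen clusters (right) of at least 50 cells, each library ordered from the lowest to the highest sum of the members and labelled with its first leading gene. The naive or central memory-like columns are dark for S100a4, S100a6, Anxa1 and Lgals3, and the spleen Th17-like column at the far right reaches 2160 CPM of S100a6.

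Clusters high in 1 member tended to be high in the others. Over the 12 brain and 16 spleen clusters of at least 50 cells, Pearson's correlation of log2(CPM + 10) between 2 members had a median of 0.81 in brain and 0.78 in spleen, with a range over the 45 member couples of 0.39 to 0.96 and 0.30 to 0.93. The nearby genes S100a4 and S100a6 gave 0.93 in both tissues, and the direct neighbours S100a10 and S100a11 gave 0.96 in brain and 0.89 in spleen. Couples that do not lie close together reached like values. Lgals1, on chromosome 15, gave 0.93 in brain and 0.91 in spleen with S100a4, and 0.94 and 0.93 with S100a10. Anxa1 was the least alike, with 0.69 in brain and 0.64 in spleen against the mean of the other members. Over single thinned cells the medians were 0.34 in brain and 0.43 in spleen. The highest value in spleen was 0.70, for S100a4 and S100a6. In brain it was 0.58, for S100a4 and Lgals1, and S100a4 and S100a6 gave 0.55. These correlations describe points that share a library and cells, and have no p.

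Of 2988 other genes, Prr13 followed the mean profile of the members most closely, with 0.97 in brain and 0.91 in spleen. It was followed by Lsp1, an actin-binding protein of leukocytes (0.88 and 0.92), S100a13, another gene of the family (0.89 and 0.91), Glipr1 (0.93 and 0.87), Mrpl33 (0.87 and 0.93) and Reep5 (0.84 and 0.93). None of these 6 was called between the tissues, with ratios from 0.95 to 1.41. The most opposite were Lef1 (-0.93 and -0.84), Bach2 (-0.89 and -0.87) and Foxp1 (-0.91 and -0.83), transcription factors of naive and memory T cells. They were lower in brain, with ratios of 0.391, 0.607 and 0.550. The next were Dusp10 (-0.84 and -0.78), which was higher in brain at a ratio of 2.42, and Zfp280d (-0.88 and -0.73) and Il4ra (-0.72 and -0.87), which were not called, at 0.817 and 1.19.

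Of 13 further genes named for S100, 2 were measured at 10 CPM and neither was called: S100a13, and S100pbp, which encodes a binding protein and not an S100 protein. S100a5, which lies between S100a4 and S100a6, had 0.46 CPM in brain against 0.15 CPM in spleen. Of 10 other annexins, 4 were measured and 0 called: Anxa5, Anxa6, Anxa7 and Anxa11 had ratios from 0.88 to 1.17. Of 9 further genes named for galectins, 4 were measured and only Lgalsl was called, at 10.2 CPM in brain against 3.77 CPM in spleen. The others were Lgals8, Lgals9 and Lgals3bp, a binding protein and not a galectin. Of 14 measured partners of the members, 3 were higher and 1 lower. Cd44, the receptor used in the sort, had a ratio of 1.96, Lag3 of 1.76 and Ahnak of 1.56, while Cd7 had 35.3 CPM in brain against 54.2 CPM in spleen. Of 31 measured cytoskeletal and effector memory genes, 10 were higher and 1 lower, among them Vcl (2.76), Ly6c2 (2.60), Capg (2.18) and Lmna (2.15). Of 13 naive and central memory genes, 0 were higher and 10 lower, among them Dapl1 (0.214), Nsg2 (0.282) and Igfbp4 (0.282).

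Within matched classes the brain did not stand above the spleen throughout. The 6 classes with at least 50 cells in each tissue gave opposite pictures. In Th17-like cells, 567 in brain and 631 in spleen, 0 members were higher and 7 were lower in brain, against 10.9% of genes higher and 13.9% lower. Crip1 had 933 CPM in brain against 2098 CPM in spleen, with a ratio of 0.445 (0.431 to 0.459). Lgals3 had a ratio of 0.386, Anxa1 of 0.388, S100a10 of 0.516, Lgals1 of 0.522, S100a6 of 0.594 and Vim of 0.624. S100a4, at 1239 CPM in brain against 1594 CPM in spleen, had a ratio of 0.777 and was not called. The median log2 ratio of all genes in this class was -0.13.

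These ratios are relative to the total of the cell, and brain Th17-like cells held more UMIs, with a mean of 12740 against 7915 in spleen. Counted as UMIs per cell, the order changed for some members. Vim had a mean of 18.0 UMIs per brain cell and 17.9 per spleen cell, S100a6 had 16.3 and 17.1, and S100a4 had 15.8 and 12.6. Crip1, with 11.9 in brain and 16.6 in spleen, and Lgals3, with 1.36 and 2.19, had less per brain cell on this scale too, as did Anxa1, S100a10 and Lgals1. A higher RNA content per cell and a deeper library cannot be told apart. The median stress level in this class was 17430 CPM in brain against 4776 CPM in spleen, and its part in the ratios was not tested. With the unnamed brain cluster led by Ifitm1 and Tmem176b in place of the brain Th17-like clusters, 6 members were lower and 0 higher. All genes gave 15.4% lower and 8.71% higher there. With that cluster added to the Th17-like ones, 7 members were lower and 0 higher, against 13.5% and 9.51% of genes.

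NKT-like cells went the other way. In 159 brain and 675 spleen cells, 8 of 10 members were higher in brain and 0 lower, against 7.55% of genes higher and 14.2% lower. Vim had 306 CPM in brain against 11.7 CPM in spleen, with a ratio of 26.1, with a lower bound of 19.95 and an upper bound of 34.8. Lgals3 had 41.3 CPM in brain against 1.56 CPM in spleen from 8 UMIs, a ratio of 26.5 (12.7 to 63.9). Anxa2 had 166 CPM in brain against 11.3 CPM in spleen, with a ratio of 14.7, and S100a6 had 743 and 81.5 CPM, a ratio of 9.12. Lgals1 (3.96), Crip1 (2.55), Anxa1 (2.54) and S100a4 (2.27) followed. S100a10, at 704 CPM in brain against 730 CPM in spleen, and S100a11 were not called. The median stress level of the class was 15217 CPM in brain against 4817 CPM in spleen, and its part was not tested.

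The same comparison was made without cluster names. Cells whose receptor used TRAV11 with TRAJ18, the alpha chain of invariant NKT cells, numbered 119 in brain and 648 in spleen over all clusters. Of NKT-like cells with both chains read, 106 of 132 in brain (80.3%) and 582 of 627 in spleen (92.8%) had this receptor, so the other cells that had it lay outside the class. Among all cells with the receptor 8 of 10 members were higher in brain, against 7.04% of all genes. Vim had 314 CPM in brain against 24.7 CPM in spleen, with a ratio of 12.7 (10.4 to 15.6), and had a UMI in 63.9% of brain and 6.02% of spleen cells. Anxa2 had a ratio of 9.39, Lgals3 of 15.9 and S100a6 of 4.52. S100a10 had 774 CPM in brain against 775 CPM in spleen. S100a4 stayed low in these cells in both tissues, at 129 CPM in brain against 61.7 CPM in spleen.

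Interferon response-like cells, 139 in brain and 263 in spleen, had 8 members higher and 0 lower, against 16.2% and 13.7% of genes. S100a6 had 691 CPM in brain against 136 CPM in spleen, with a ratio of 5.07, and S100a4 had 433 and 101 CPM, a ratio of 4.27. Lgals3 had 47.2 CPM in brain against 4.82 CPM in spleen, with a ratio of 9.79. Anxa1 had 54 UMIs in brain and 1 UMI in spleen, a ratio of 86.8 whose interval runs from 14.9 to 3492. The median stress level of the class was 15941 CPM in brain against 5514 CPM in spleen, and its part was not tested.

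In the other 3 classes few members were called. Regulatory-like cells had Anxa1 higher, at 12.9 CPM in brain against 7.30 CPM in spleen with a lower bound of 1.03, and Anxa2 lower, at 62.8 and 96.5 CPM. The background there was 8.94% higher and 7.87% lower. Among naive or central memory-like cells 5 members reached 10 CPM, of which 0 were higher and Lgals1 was lower, at 63.9 CPM in brain against 98.9 CPM in spleen. Of all genes in that class 8.31% were higher and 6.4% lower. Cytotoxic-like cells had S100a6 higher, at a ratio of 1.54, and 0 lower, against 8.88% and 11.7%. The cytotoxic-like class joins the Gzma and Zeb2 cluster with the Eomes and Gzmk cluster in unequal parts, 45 and 90 cells in brain and 91 and 94 cells in spleen. Of the measured cytotoxic markers, only 4 of 10 were higher in the brain Eomes and Gzmk cluster and 6 of 9 in the spleen one. In the Gzma and Zeb2 cluster 9 of 11 were higher in each tissue. Cd8a and Cd8b1, which encode the CD8 co-receptor, were among the leading genes of the brain Eomes and Gzmk cluster, and Cd8b1 among those of the spleen one; their part in the ratios was not tested. Its ratios turn with the clustering: at resolution 0.5, where the spleen class held 91 cells, S100a4 had a log2 ratio of -1.37.

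**Figure D3:**
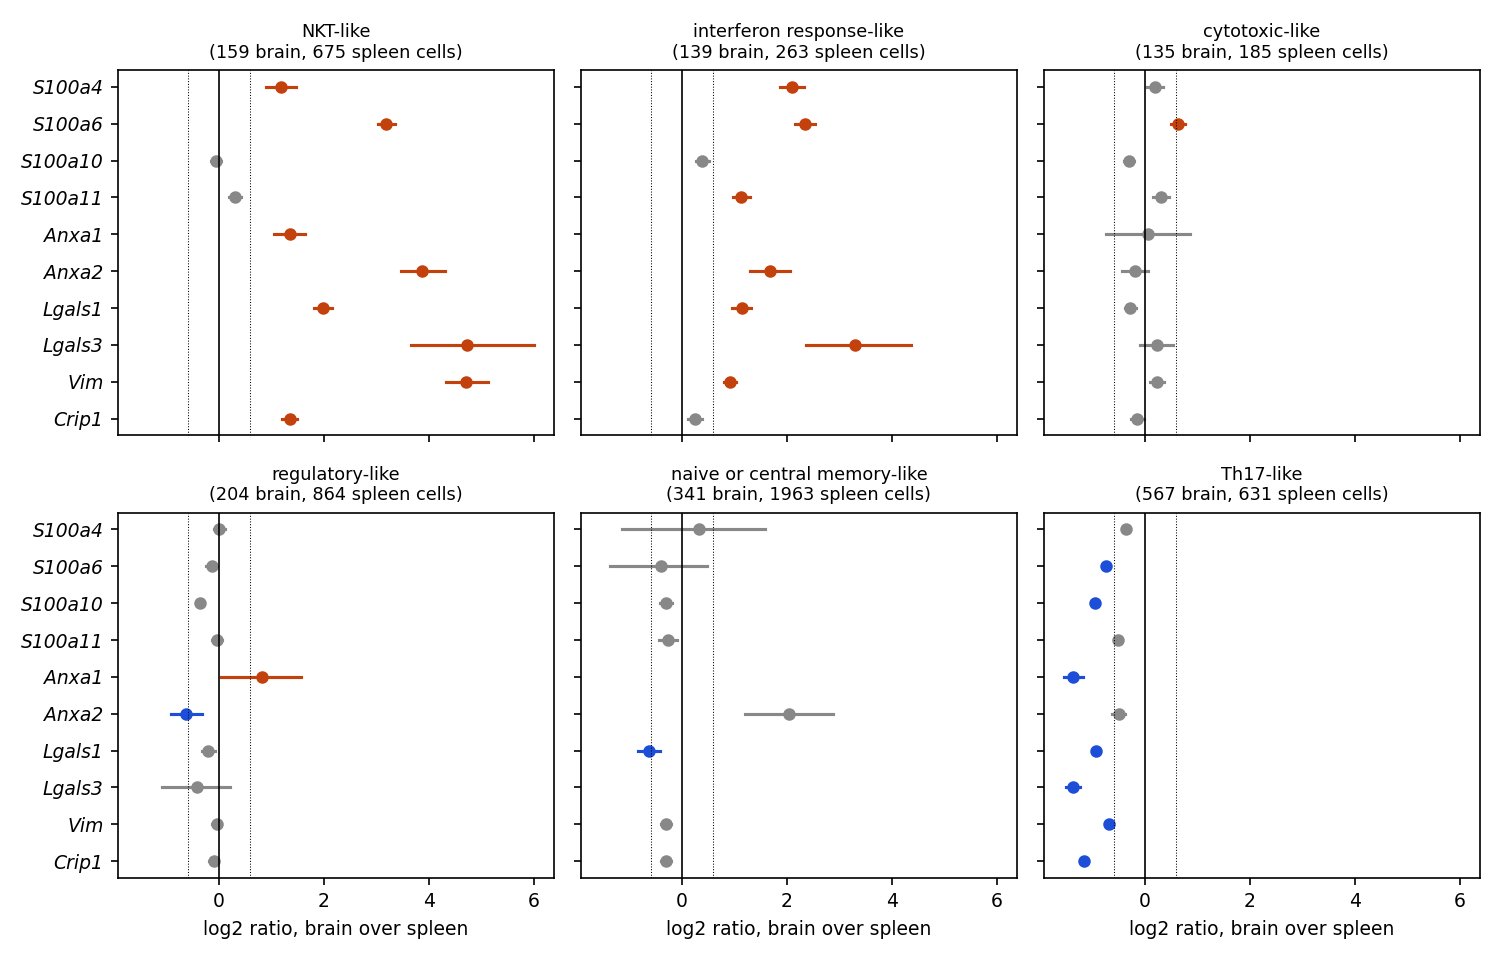
Log2 ratio of brain over spleen for each member within the 6 matched classes. Points are ratios of summed CPM with exact 95% counting intervals, drawn for members with more than 3 UMIs in both tissues; orange marks members called higher in brain, blue those called lower, grey those not called or under 10 CPM, and dotted lines a ratio of 1.5 in either direction. NKT-like cells reach a ratio of 26.5 for Lgals3, and all 10 points of the Th17-like panel lie left of 0.

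Clone size was read from the paired receptors of 3114 brain and 6718 spleen cells, a clonotype being the cells with the same V genes and CDR3 nucleotides in both chains. In brain, expanded cells, those of clonotypes of at least 5 cells (720 cells, 64 clonotypes), had 6 of 10 members higher than single cells, those of clonotypes of 1 cell (1832 cells), against 5.23% of genes. Lgals3 had 126 CPM in expanded and 52.6 CPM in single brain cells, a ratio of 2.40, and S100a4 had 1044 and 486 CPM, a ratio of 2.15. Anxa2 (1.68), Anxa1 (1.62), Lgals1 (1.58) and S100a6 (1.51) were also called, and Crip1 had 703 and 688 CPM. Without naive or central memory-like, regulatory-like and NKT-like cells, 2 were called, S100a4 at 1.66 and Lgals3 at 1.81, against 3.08% of genes. Among brain Th17-like cells S100a4 alone was higher, with 1547 CPM in expanded and 966 CPM in single cells, against 8.33% of genes. This class joins 2 clusters that differ in clone size and in S100a4. Of their cells with paired receptors, 47.6% were expanded in the Il17a cluster and 12.5% in the Ccr6 cluster. S100a4 stood at 1509 and 932 CPM in these clusters, and the part of this in the difference was not tested. Among Th1-like cells 0 were higher and Anxa1 was lower, with 21.7 CPM in expanded and 34.7 CPM in single cells, against 2.92%.

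In spleen, expanded cells (213 cells, 23 clonotypes) had all 10 members higher than single cells (5975 cells), against 13.8% of genes. The difference between the tissues in these ratios was not tested. Lgals3 had 199 CPM in expanded and 25.4 CPM in single spleen cells, a ratio of 7.86 (6.90 to 8.92). S100a4 had 1380 CPM in expanded and 256 CPM in single cells, a ratio of 5.38, and S100a6 had 1731 and 352 CPM, a ratio of 4.92. S100a10 (2.21) and Crip1 (2.10) had the smallest ratios. Of the expanded spleen cells 44.6% were Th17-like, 25.8% follicular helper-like and 0% naive or central memory-like, against 5.9%, 3.0% and 28.9% of single cells. The largest spleen clonotype alone held 60 of the 213 expanded cells, so it weighs on these values.

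Without naive or central memory-like, regulatory-like and NKT-like cells, all 10 members were still higher in expanded spleen cells, against 11.1% of genes, with S100a4 at a ratio of 3.68 and Lgals3 at 4.59. Within the Th17-like cells of the spleen, 95 expanded and 350 single, 0 were higher, against 5.01% of genes: S100a4 had 1960 CPM in expanded and 1480 CPM in single cells, a ratio of 1.32, and S100a6 had 2354 and 2080 CPM. Within follicular helper-like cells, 55 expanded and 179 single, S100a11 (1826 and 1115 CPM, ratio 1.64) and S100a6 (761 and 474 CPM, ratio 1.60) were higher, against 4.54% of genes. Anxa2 was lower there (165 and 250 CPM), against 4.19%.

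Over all cells, the main step in S100a4 lay between clonotypes of 1 cell and those of 2 to 4 cells. In brain it stood at 486 CPM in clonotypes of 1 cell, 1032 CPM at 2 to 4 cells, 1087 CPM at 5 to 9 cells and 1013 CPM at 10 or more. In spleen it stood at 256, 1160, 1411 and 1331 CPM in the same order. Brain cells of 1-cell clonotypes had 627 CPM once naive or central memory-like, regulatory-like and NKT-like cells were left out. Among brain Th1-like cells S100a4 stood at 538, 648, 637 and 443 CPM over the same sizes, so this step was smaller there. Crip1 in brain stood at 688, 986, 850 and 598 CPM, and so was lowest in the largest clonotypes. The bin of 10 or more cells held 18 clonotypes in brain and 3 in spleen, so single clonotypes weigh on it.

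**Figure D4:**
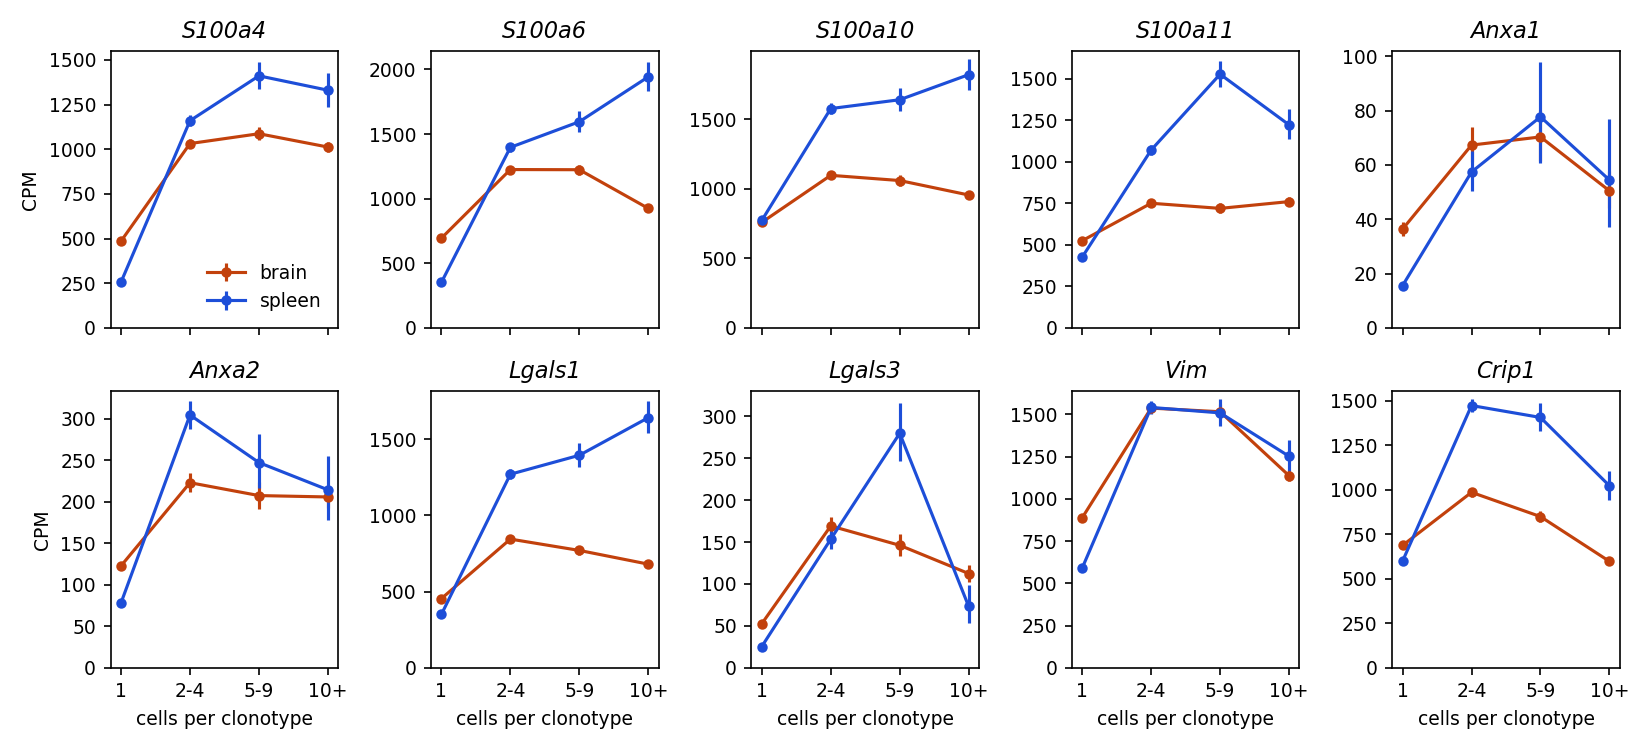
CPM of each member by the number of cells in the clonotype within its tissue, with exact 95% counting intervals, for brain (orange) and spleen (blue). For S100a4, brain stands at 486 CPM and spleen at 256 CPM in clonotypes of 1 cell, and at 2 to 4 cells the lines have crossed, with 1032 CPM in brain against 1160 CPM in spleen.

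Clonotypes found in both tissues let cells with the same receptor be set side by side. There were 187 such clonotypes, with 566 brain and 409 spleen cells. In brain, cells of shared clonotypes had 2 members higher than cells of clonotypes found in brain alone, Lgals3 at 2.01 and S100a4 at 1.76, against 2.61% of genes. Without naive or central memory-like, regulatory-like and NKT-like cells Lgals3 alone was called, at 1.65, against 1.51%. In spleen, cells of shared clonotypes had all 10 members higher than cells of clonotypes found in spleen alone, against 10.3% of genes: Lgals3 had 211 CPM against 30.1 CPM, a ratio of 6.99, Anxa1 a ratio of 6.02 and S100a4 of 4.75. Without those 3 classes all 10 were again higher, against 7.19%. A clonotype can be both shared and expanded, so this comparison and the one by clone size overlap in their cells.

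Within the same clonotype no member was called higher in brain. For the 17 clonotypes seen in 3 or more cells of both tissues, 169 brain and 149 spleen cells in all, 0 members were higher in brain by a median of 1.5-fold and 2 were lower, against 8.83% of genes higher and 5.77% lower. Lgals1 had a median of 939 CPM over brain parts and 1805 CPM over spleen parts of these clonotypes, with a median difference of -0.86 on the log2(CPM + 10) scale and 13 of 17 clonotypes lower in brain. Anxa1 had a median difference of -0.79 at low levels, 39.7 CPM in brain against 81.2 CPM in spleen, and was lower in brain in 10 of 17. S100a11 was lower in brain in 14 of 17 clonotypes with a median difference of -0.35, S100a10 and Crip1 in 13 of 17 and S100a4 in 12 of 17. None of these was called. Anxa2 was higher in brain in 11 of 17, with a median difference of 0.32. Vim was lower in 10 of 17, with a median difference of -0.21, and S100a6 in 9 of 17, with -0.25. Lgals3 was higher in 8 and lower in 8, with a median difference of 0.00. Over all genes the median of the gene medians was 0.00, and the median share of clonotypes higher in brain was 41.2%.

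The largest of these clonotypes, with 57 brain and 60 spleen cells, had 1055 CPM of S100a4 in brain and 1533 CPM in spleen, 1308 and 2162 CPM of S100a6, and 939 and 1898 CPM of Lgals1. Its Vim was 1470 CPM in brain against 1328 CPM in spleen and its Lgals3 130 and 78.3 CPM. The main class of its cells was Th1-like in brain and Th17-like in spleen. The next in brain size, with 28 brain cells and 3 spleen cells, was low in both tissues, at 182 CPM of S100a4 in brain and 239 CPM in spleen. Of the 17, the class with most spleen cells was Th17-like in 13. Counted per cell, the 17 clonotypes together held a mean of 12.9 S100a4 UMIs in brain and 13.1 in spleen, 14.5 and 14.9 of S100a6, and 10.6 and 14.3 of Lgals1, with a mean total of 10978 UMIs in brain and 7617 in spleen. Vim had 15.8 UMIs per cell in brain and 12.4 in spleen, and Anxa2 had 2.67 and 1.89. Lgals3 had 1.93 and 1.49, and Anxa1 had 0.64 and 0.73. On this scale S100a4 and S100a6 lay close together, Lgals1 and Anxa1 were less and Vim, Anxa2 and Lgals3 were more in brain. These means pool the cells and are not paired by clonotype. Large clonotypes weigh more in them, and the weights differ between the tissues.

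**Figure D5:**
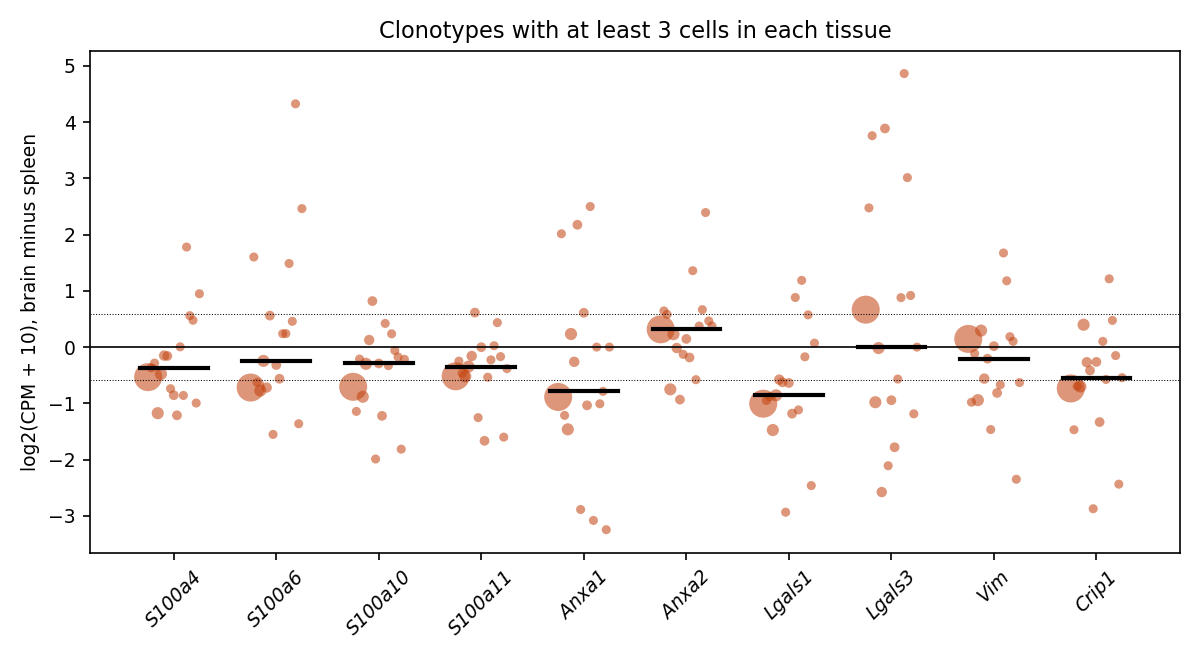
Brain minus spleen difference of log2(CPM + 10) for each member within the 17 clonotypes seen in 3 or more cells of both tissues. Each point is 1 clonotype, its area growing with the smaller of its 2 cell numbers; black bars are medians and dotted lines a 1.5-fold difference. The bars of Lgals1 and Anxa1, at -0.86 and -0.79, lie below the lower dotted line.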

How the data were processed

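Whole UMI counts per gene and barcode, deposited by the authors for 1 RNA library per tissue, were used as given. Receptor contigs were deposited beside them. Per the submitters' processing notes Cell Ranger 9.0.0 was used, and several genome builds are listed without a role, so no coordinates of measured genes are given. The libraries were made with 5' chemistry, per the labels' protocols, from 18718 brain and 38000 spleen cells. The files held 4277 brain and 8707 spleen barcodes.

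Barcodes with at least 500 genes, 1000 UMIs and at most 10% mitochondrial UMIs were kept. As doublets, barcodes holding over 1 productive TRB contig, or over 2 of TRA, were removed (179 brain, 315 spleen). Cells with at least 3 UMIs of 6 myeloid or of 6 B cell genes (27 and 7 in brain, 7 and 183 in spleen) were left out before clustering. That rule was chosen after a first clustering joined such cells with T cells, in place of leaving out whole clusters. Each library was clustered alone (scanpy 1.11.5, 2000 variable genes without the members, 30 components, 15 neighbours, Leiden resolution 0.8). A cluster was named from marker lists (at least 3 markers higher, mean log2 difference 0.3, lead 0.5, 2 markers among its 10 leading genes), with thresholds set after looking at the clusters. Unnamed clusters stay unnamed.

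Counts were summed and scaled to CPM. Ratios have exact conditional binomial (Clopper-Pearson) 95% intervals, levels exact Poisson ones. Genes under 10 CPM in the higher group were not called. Where no UMI was found, 3 counts set the upper limit (0.0734 CPM for brain, 0.0499 for spleen). Calls ran over all genes. The calculation was tested on simulated data. Other genes named are up to 4 called genes per list with the largest ratio, and the 6 nearest to the members' profile. Its opposites, and genes that define a cluster, lie beside a member or are in the marker lists and not called, were named after their values were seen. The lists were myeloid, B cell, CD8 T cell, erythroid, oligodendrocyte, astrocyte, endothelial and T cell markers, besides those described. Of these, 1 of 1 measured B cell gene, 2 of 2 erythroid, 1 of 2 oligodendrocyte and 2 of 2 endothelial genes were lower in brain, and no CD8 T cell or astrocyte gene was called. Cd8a, at 9.12 CPM in brain against 1.78 CPM in spleen (ratio 5.13, 4.13 to 6.42), was under the 10 CPM minimum. Some genes of the lists are not reported here by name. The members and lists were chosen with earlier results of these data known.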

Additional observations from a re-analysis of the deposited data

Results flagged for a closer look

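Of the 10 members, 7 were called higher in brain in at least 1 class and lower in at least 1 other. The share of all genes with such opposite calls was not counted, so the 7 cannot be set against a background. In single classes 7.55% to 16.2% of all genes were higher and 6.4% to 14.2% lower. Each gap below is the widest between called classes. The difference between classes was not tested, since each class has 1 library per tissue. For S100a6 the log2 ratio was 3.19 in NKT-like and -0.75 in Th17-like cells, 3.94 apart. Anxa1 had 6.44 in interferon response-like and -1.37 in Th17-like cells, a gap of 7.81. Anxa2 had 3.87 in NKT-like and -0.62 in regulatory-like cells, a gap of 4.49. Lgals1 had 1.99 in NKT-like and -0.94 in Th17-like cells, a gap of 2.92. Lgals3 had 4.73 in NKT-like and -1.37 in Th17-like cells, a gap of 6.10. Vim had 4.71 in NKT-like and -0.68 in Th17-like cells, a gap of 5.39. Crip1 had 1.35 in NKT-like and -1.17 in Th17-like cells, a gap of 2.52. The Anxa1 value rests on 1 UMI in the spleen interferon response-like cells, and Anxa2 in regulatory-like cells on 117 brain UMIs.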

How the results depend on the processing

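The tissues could not be paired by mouse because each has 1 RNA library, and values were paired only within clonotypes found in both tissues. Over all cells, 6 members were called higher in brain under each scaling, filter, depth and weighting setting tried, with these exceptions: 4 without naive or central memory-like, regulatory-like, NKT-like and proliferating-like cells, where Anxa2 and Vim fell short, and 7 for the brain cells lowest in stress genes against the spleen cells highest in them, chosen after seeing the data; the median stress level was still higher in those brain cells, 7969 CPM against 6780 CPM. TMM and median-of-ratios factors shifted all log2 ratios by 0.05. Within classes, 18 higher and 9 lower calls became 16 and 19 at resolution 0.5 and 16 and 24 at resolution 1.2, where a Th1-like class (276 brain and 347 spleen cells) was matched as well and is counted. They became 9 and 10 with the members among the clustering genes, where no interferon response-like class was matched. The cytotoxic-like class reversed for 5 members. At resolution 0.5 the log2 ratios were -1.37 for S100a4, -0.79 for S100a6, -1.58 for Anxa1, -1.57 for Lgals3 and -0.75 for Vim, and at 1.2 they were -1.38, -0.80, -1.59, -1.58 and -0.74. At both resolutions the spleen class held 91 cells, against 185. Expanded brain cells had 3 members higher with clonotypes of at least 10 cells and 2 without naive or central memory-like, regulatory-like and NKT-like cells, against 6. They had 7 with clonotypes of at least 3 cells, by TRB alone or without the largest clonotype. In spleen, 10 were higher in every setting tried. In shared clonotypes 0 were higher in every setting, and 1 to 5 were lower, the 5 when counts were summed over all 187. The share of all genes called is not given for every setting, so these counts describe the members alone. Of the values of single members under 1 alternative each, 467 kept direction and call, 19 lost the call, 21 gained it and 10 reversed. The lone library per tissue limits every comparison: an interval cannot show how mice differ.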
